A study of Mus musculus with 10 samples.

Results

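The set described here holds 10 long noncoding RNA genes, namely Malat1, Neat1, Gas5, Snhg1, Kcnq1ot1, Dnm3os, Pvt1, Norad, Mir17hg and Dancr, out of 56750 features counted by bulk RNA-seq in mouse sarcomas. They were picked by name, and all 10 passed the filter on low counts that left 24743 genes to test, 3815 of them annotated as lncRNA. The dFLEx group held 3 tumors (170019, 170024 and 170025) with the genotype dFLEx CDS +/-. These mice carry an HA-tagged CIC::DUX4 fusion behind a CAG promoter at Rosa26, which needs both Cre and FLPE to be expressed, and the tumors were started by electroporating plasmids for both enzymes into the hind-limb muscle. The KP group held 2 tumors (3800 and 3802) with the genotype KRASloxP-STOP-loxP-G12D; p53fl/fl. Both groups were thus autochthonous sarcomas in mice, started from different alleles, and while the methods describe dFLEx mice as young adults at electroporation, the age of the KP mice and how their tumors were started are not given in the sources used here. The KP group is therefore a different sarcoma and not normal tissue. The study's survival data list the 3 dFLEx numbers as separate mice, but nothing used here says whether the KP tumors came from separate animals, so a p-value here measures the spread between these tumors only. Each tumor's RNA had been split into duplicates, and the libraries of a tumor were summed. Tumor 3802 enters with 1 library, since its other library was not analysed here.

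Long noncoding RNAs act as RNA rather than through an encoded protein. Some stay in the nucleus and build or sit in nuclear bodies: Neat1 is the scaffold of paraspeckles and Malat1 collects in nuclear speckles. Others are host genes, whose spliced RNA is left over when small nucleolar RNAs (snoRNAs, guides for the modification of ribosomal RNA) or microRNAs are cut from them. Gas5, Snhg1 and Dancr are snoRNA hosts, and Mir17hg and Dnm3os are microRNA hosts. Norad is cytoplasmic and binds Pumilio proteins, Kcnq1ot1 is the imprinted antisense RNA of the Kcnq1 locus, and Pvt1 lies beside Myc.

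The sequences that give 3 of these genes their function are short. Mir17hg (chromosome 14, 115280311 to 115284159, plus strand, in the GRCm39 coordinates of the deposited table) carries the miR-17-92 cluster, and Dnm3os (chromosome 1, 162045192 to 162053119, plus strand) carries Mir199a-2 and Mir214. The main mature arms are shown because the seed, bases 2 to 8 and printed in capitals, decides which messages a microRNA can pair with. Sequences and positions are RefSeq's on GRCm38.p6, where the arms from Mir17hg lie between chr14:115043684-115044496 and those from Dnm3os between chr1:162217844-162223459. miR-17-5p and miR-20a-5p share the seed AAAGUGC, miR-19a-3p and miR-19b-3p share GUGCAAA, and each of the others has a seed of its own.
miR-17-5p: cAAAGUGCuuacagugcagguag
miR-20a-5p: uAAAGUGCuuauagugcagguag
miR-18a-5p: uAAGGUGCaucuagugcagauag
miR-19a-3p: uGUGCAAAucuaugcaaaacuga
miR-19b-3p: uGUGCAAAuccaugcaaaacuga
miR-92a-3p: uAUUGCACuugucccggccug
miR-199a-5p: cCCAGUGUucagacuaccuguuc
miR-199a-3p: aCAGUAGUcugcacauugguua
miR-214-3p: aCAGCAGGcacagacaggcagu

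Norad (chromosome 2, 156229980 to 156234921, minus strand, GRCm39, a single exon of 4942 bases) is known for its Pumilio motifs, TGTANATA on the sense strand. Its exonic sequence held 11 of them and its opposite strand held 0. That is 2.23 motifs per kb, against a median of 0 over the 17168 tested genes with at least 2000 exonic bases, among which it ranked 3. The other members held between 0 per kb (Malat1 and Dancr) and 0.332 per kb (Snhg1). Of the motifs in Norad, 6 read TGTATATA, 3 TGTACATA and 2 TGTAAATA. They are printed in capitals with 8 bases on each side, named by the position of the motif's first base in the transcript, because the letters also show GGACAA within the 8 bases after 4 of them. The windows span chr2:156231359-156234257 on the minus strand, and the windows at 2464 and 2473 overlap.
Norad 673: aagtcctgTGTATATAatatgaaa
Norad 1169: aaacatgcTGTAAATAcctttttg
Norad 1358: cttttcttTGTACATAgtgtatgt
Norad 1545: gactgctgTGTATATAgtggacaa
Norad 1646: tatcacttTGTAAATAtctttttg
Norad 1851: gtgtatacTGTATATAatggacaa
Norad 2255: atattttgTGTATATAgttttttt
Norad 2464: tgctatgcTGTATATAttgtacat
Norad 2473: gtatatatTGTACATActggacaa
Norad 2776: tactactaTGTATATAggggacaa
Norad 3548: tgagaaagTGTACATAacggattg

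The libraries held between 20503474 and 46302223 counts, and the CIC_DUX4 contig was read at 89.2 to 412 CPM (reads per library, brought to equal totals) in the 6 dFLEx libraries, at 0 in both libraries of 3800 and at 6 counts in that of 3802. Levels below are CPM of the summed counts, scaled by TMM. Some tumors stood apart in ways that touch several members. Olfactory and vomeronasal receptor genes, which should be silent in these tumors, were read at 0.127 CPM per kb in 3802 and at 0.00237 to 0.0231 in the other 8 libraries. The 4556 genes with an exonic length over 5000 bases lay below the 669 genes under 1500 bases in some tumors and above them in others (medians of centred log2 levels, genes averaging 10 CPM or more). The difference was -1.45 in 170019, -0.41 in 170024, 1.40 in 170025, 1.32 in 3800 and -0.84 in 3802. Markers of muscle fibers, the tissue into which the dFLEx tumors were induced, summed to 8051, 31913 and 8810 CPM in the dFLEx tumors and to 1233 and 3982 CPM in the KP tumors, and all 6 were higher in every dFLEx tumor. Macrophage markers summed to 822 to 1075 CPM in dFLEx against 2174 and 4534 CPM in KP, with 4 of 5 lower in every dFLEx tumor. Fibroblast markers summed to 3452, 5345 and 10716 CPM in dFLEx against 3199 and 1583 CPM in KP, with 3 of 6 higher in every dFLEx tumor. Endothelial markers summed to 152, 261 and 483 CPM against 122 and 59.98 CPM, with 1 of 5 (Pecam1) higher in every dFLEx tumor. Cdh5, Kdr, Tek and Erg overlapped between the groups, although the sums did not. For comparison, 13.7% of all tested genes had their dFLEx levels all above both KP levels, and 11.7% had them all below. Proliferation markers overlapped, at 577 to 944 CPM against 295 and 960 CPM. In bulk tumors, fewer cells of a type and less RNA per cell cannot be told apart, and the part of these markers in the results below was not tested.

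The group was named for abundance, which held for some members only. Per kb of exonic sequence, the scale on which genes can be compared, the mean levels over 5 tumors ran from 46.9 CPM per kb for Gas5 to 0.164 CPM per kb for Kcnq1ot1. Gas5, Snhg1 (41.4), Norad (32.4) and Malat1 (32.4) formed the upper group, with between 4.80% and 6.71% of tested genes above them. Their order could not be settled, because each pair of neighbors among them swapped places between tumors. Neat1 followed at 4.11 CPM per kb, below Malat1 in 5 of 5 tumors with ranges that did not touch. Dancr (2.33), Pvt1 (1.20), Dnm3os (0.749) and Mir17hg (0.739) overlapped with their neighbors, and 40.8% to 56.9% of tested genes were above them. Kcnq1ot1 was the lowest in every tumor, with 81.8% of tested genes above it, although its exonic length of 93092 bases still gave it 42 to 773 counts per library. Among the 3815 tested lncRNA genes ranked per kb, Gas5 was 9, Snhg1 11, Norad 16, Malat1 17 and Neat1 120, and Kcnq1ot1 was 2512. By mean CPM, which favors long genes, Malat1 was 5, Neat1 12 and Kcnq1ot1 74. Together the 10 RNAs took 0.0453% to 0.117% of a tumor's counts.

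**Figure D1:**
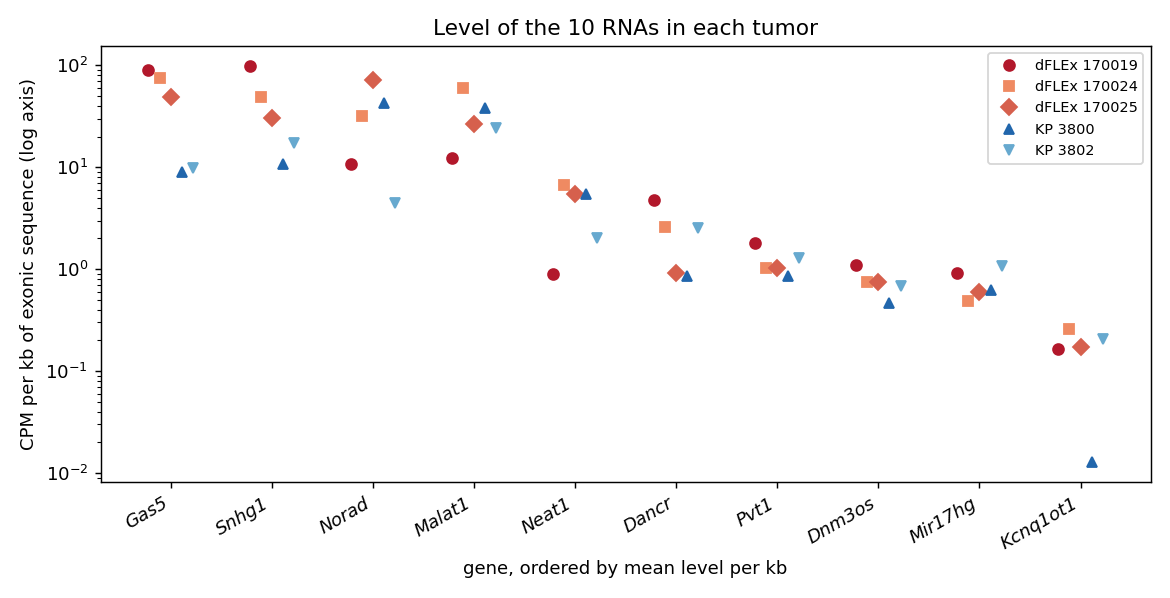
Level of each of the 10 RNAs in each tumor, in CPM per kb of exonic sequence on a log axis, with 1 point per tumor (red shades and circle, square or diamond for dFLEx, blue triangles for KP). Gas5 and Snhg1 show the 3 dFLEx tumors above both KP tumors, Norad spans 16.3-fold without separating the groups, and the single low point of Kcnq1ot1 is KP 3800.

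Between the models, no member passed the test. In edgeR on tumor sums, 0 of 10 reached an adjusted p under 0.05, where 45 of 24743 genes did (0.182%). At an unadjusted p under 0.05, 2 of 10 were higher in dFLEx, Gas5 and Snhg1 (5.65% of all tested genes), and 0 of 10 were lower (4.93% of all tested genes). In 3 of 10 members every dFLEx tumor was above every KP tumor, against 13.7% of all genes, and in 0 of 10 every dFLEx tumor was below, against 11.7%. Of the 793 lncRNA genes averaging 1 CPM or more, 190 lay above in this way and 96 below. In edgeR, 149 of those 793 had an unadjusted p under 0.05 in either direction. The median log2 fold change of dFLEx over KP was 0.64 over the members and -0.18 over all tested genes, while the 793 lncRNA genes averaging 1 CPM or more had a median of 0.40. Other tools called up to 2 members. DESeq2 on tumor sums called Gas5 (6.66% of genes called), limma-voom on libraries, with tumor as random effect, called Gas5 (2.78%), and fits that treat duplicate libraries as independent called Gas5 and Snhg1, in edgeR (17.1%) and in DESeq2 (20.4%). With 3 tumors against 2, the smallest two-sided p an exact permutation test could give for a single gene is 0.2.

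**Figure D2:**
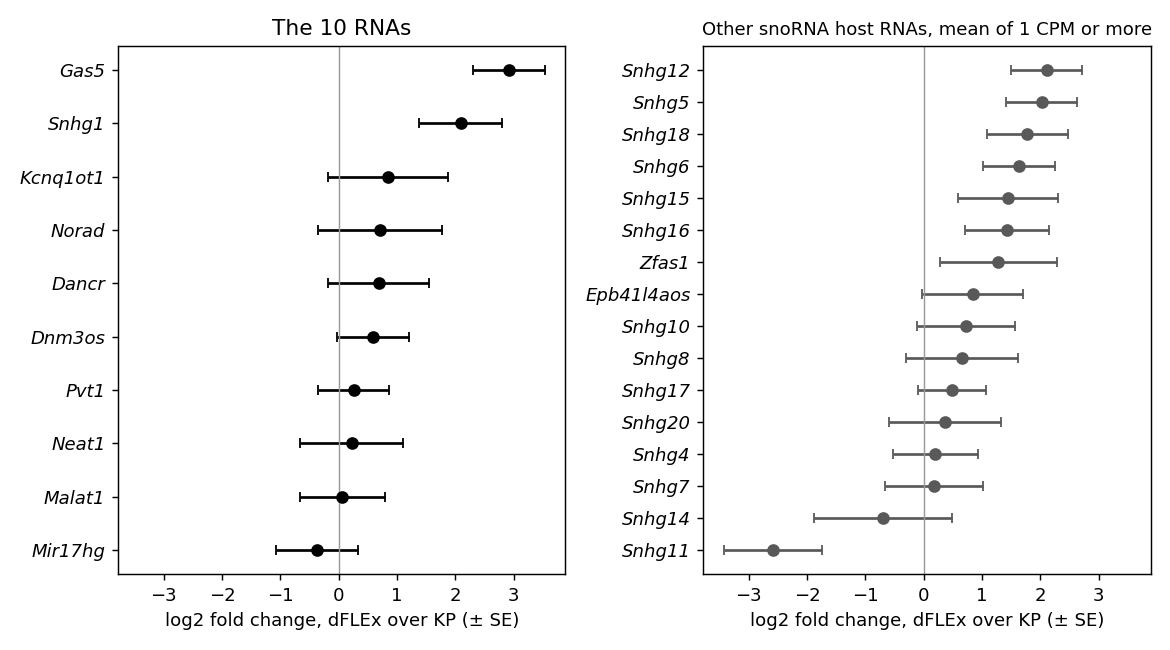
Log2 fold change of dFLEx over KP with its standard error (bars) from edgeR on 3 and 2 tumors, for the 10 RNAs on the left and the other snoRNA host RNAs with a mean of at least 1 CPM on the right. Gas5 at 2.93 and Snhg1 at 2.09 lie farthest to the right among the 10, and Mir17hg at -0.37 is the one member left of 0.

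Gas5 (chromosome 1, 160861992 to 160866116, plus strand) hosts a series of C/D-box snoRNAs and is known as an RNA that accumulates when cells stop growing. It stood at 364 CPM in 170019, 304 in 170024 and 196 in 170025, against 36.0 in 3800 and 39.7 in 3802. The groups did not overlap, with a gap of 4.94-fold between the lowest dFLEx and the higher KP tumor. The means were 288 ± 84.8 CPM (SD, n = 3) and 37.9 ± 2.60 CPM (SD, n = 2), a log2 fold change of 2.93 ± 0.61 (SE) with an adjusted p of 0.121 in edgeR. Duplicates of a tumor, which show technical noise only, differed by at most 10.9% of their mean, and 3802 had no duplicate here. Gas5 kept its direction in all 18 alternative settings, with log2 fold changes between 2.61 and 3.13, and 7 of them called it. DESeq2 on tumor sums gave an adjusted p of 0.00105 and limma-voom 0.00433.

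Snhg1 (chromosome 19, 8700801 to 8703811, plus strand) hosts another snoRNA series including Snord22. It was read at 299 CPM in 170019, 149 in 170024 and 91.9 in 170025, and at 32.3 in 3800 and 52.1 in 3802. Every dFLEx tumor was again above both KP tumors, but the gap was 1.76-fold and the dFLEx tumors themselves spanned 3.25-fold. Means of 180 ± 107 CPM (SD, n = 3) and 42.2 ± 14.05 CPM (SD, n = 2) gave a log2 fold change of 2.09 ± 0.72 (SE) and an adjusted p of 0.328 in edgeR. Without 170019 the log2 fold change was 1.45 and without 3802 it was 2.498. Gas5 and Snhg1 were not in a fixed proportion, since their ratio was 1.22, 2.04 and 2.13 in the dFLEx tumors and 1.12 and 0.762 in the KP tumors.

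Dancr (chromosome 5, 74253695 to 74256067, plus strand), the host of Snora26, did not follow them. Its levels were 11.2 CPM in 170019, 6.10 in 170024, 2.18 in 170025, 2.06 in 3800 and 6.05 in 3802. The groups overlapped, with 3802 level with 170024 and 3800 level with 170025. The log2 fold change was 0.68 ± 0.87 (SE) with an adjusted p of 0.902 in edgeR. It went from -0.04 without 170019 to 1.68 without 3802. Dancr ran opposite to the length difference given above. It was highest in 170019, where that difference was lowest, and lowest in 170025 and 3800, where that difference was highest.

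Gas5, Snhg1 and Dancr belong to a list of 21 snoRNA host RNAs, of which 20 were tested. In that list 17 had a log2 fold change above 0 and 3 below, where 43.7% of all tested genes were above 0. Among the 793 lncRNA genes averaging 1 CPM or more, 60.3% were above 0. In the list 0 passed the adjusted threshold in edgeR. An unadjusted p under 0.05 was found for 7, of which 6 were higher (5.65% of all tested genes) and 1 lower (4.93%). The median was 0.78, and 0.72 over the 17 tested genes that are not members, against -0.18 over all genes and 0.40 over lncRNA genes averaging 1 CPM or more. Among those 17, 6 had every dFLEx tumor above both KP tumors and 1 had every dFLEx tumor below, where 13.7% and 11.7% of all tested genes did. Of the 793 lncRNA genes averaging 1 CPM or more, 190 lay above in this way and 96 below. Snhg12 had the largest log2 fold change after Gas5 (2.11 ± 0.61, SE), with 92.3, 63.5 and 51.7 CPM in dFLEx and 15.1 and 17.0 CPM in KP. At the other end were Snhg14 (-0.69 ± 1.18) and Snhg11 (-2.58 ± 0.85), the latter at 0.403 to 1.39 CPM in dFLEx against 2.73 and 7.07 CPM in KP. The adjusted p was 0.235 for Snhg12, 0.931 for Snhg14 and 0.306 for Snhg11 in edgeR. Zfas1, the host with the highest mean and also chosen after its values were seen, overlapped between the groups at 634, 210 and 83.9 CPM against 43.9 and 211 CPM. The list's median was above 0 in all 18 alternatives, but it was 0.12 without 170019, 1.98 without 3802 and 0.41 with library totals in place of TMM.

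**Figure D3:**
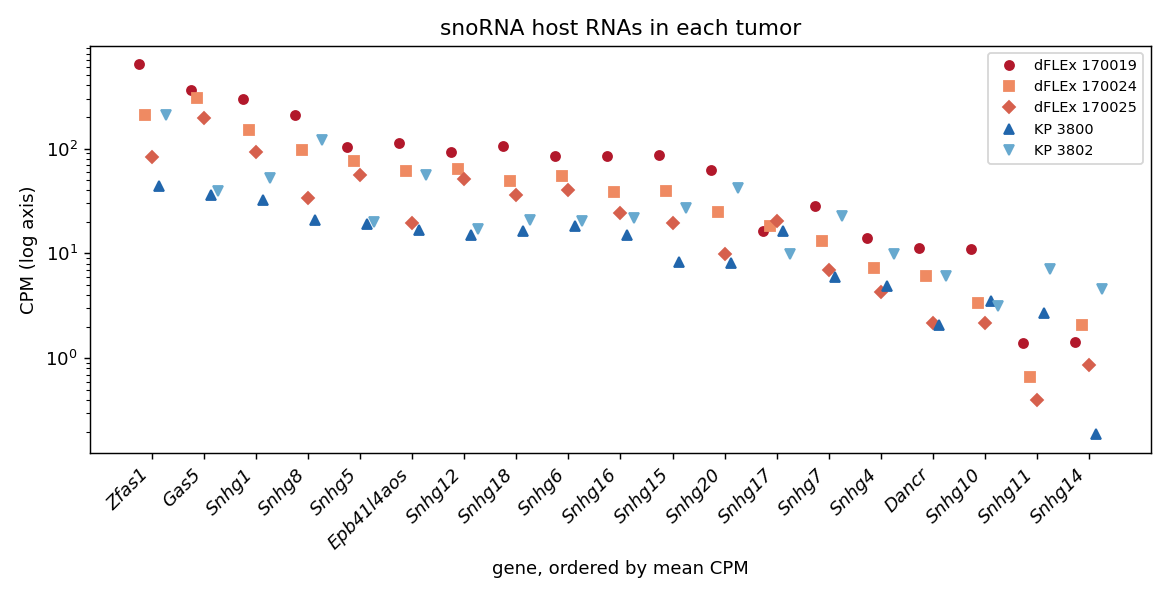
CPM (log axis) of the snoRNA host RNAs with a mean of at least 1 CPM in each of the 5 tumors, ordered by mean level, with 1 point per tumor (red shades for dFLEx, blue triangles for KP). In Gas5, Snhg1, Snhg5, Snhg12, Snhg18 and Snhg6 the red points lie above both blue ones. They also do so, by smaller gaps, in Snhg16 and Snhg17. In Zfas1, Snhg8 and Snhg20 KP 3802 lies among or above the dFLEx tumors.

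The starts of these host genes are shown because snoRNA hosts are known for a pyrimidine tract at the first transcribed base, and several also carry a TATA box. Each line gives 60 bases before the RefSeq start and the first 30 of the transcript on GRCm38.p6, with TATA found 40 to 20 bases before the start and the longest run of pyrimidines that opens with C within 10 bases of the start in capitals where it has at least 5 letters. The windows are chr1:161035106-161035195 (plus) for the downstream start of Gas5, chr19:8723427-8723516 (plus) for Snhg1, chr4:132308618-132308707 (plus) for Snhg12 and, chosen after its values were seen, chr9:88522868-88522957 (minus) for Snhg5.
Gas5: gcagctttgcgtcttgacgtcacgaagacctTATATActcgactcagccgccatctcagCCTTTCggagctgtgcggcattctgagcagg
Snhg1: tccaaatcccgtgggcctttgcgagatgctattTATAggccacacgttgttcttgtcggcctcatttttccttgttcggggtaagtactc
Snhg12: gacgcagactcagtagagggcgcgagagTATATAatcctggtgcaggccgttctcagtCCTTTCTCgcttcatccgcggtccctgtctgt
Snhg5: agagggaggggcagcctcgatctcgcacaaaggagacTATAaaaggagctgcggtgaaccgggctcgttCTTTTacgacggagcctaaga

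TATA, which reads the same on both strands, lay in that interval in 6 of the 18 snoRNA hosts with a promoter in the table and in 5.49% of all 32851 promoters. A pyrimidine run of at least 6, as in Gas5, was found in 19.2% of all promoters and one of at least 8, as in Snhg12, in 8.11%. The run marked in Snhg5 has only 5 letters and begins at base 10 of the transcript, not at its first base. Runs of at least 5 were found in 30.7% of all promoters. Of the 18 hosts, 4 had a run of at least 7, against 12.2% of all promoters. The other RefSeq start of Gas5, further upstream, had no TATA in that interval and a longest run of 3. In Snhg1 the longest run by this rule had 4 letters. The rule skips runs that open with T, such as the longer tttttcctt shortly after the start in the Snhg1 line above. The letters TGAATGAA and TGAATGGA, bound by CIC, were searched on both strands of the 300 bases around each start and lay in 0 of the 7 members with a promoter, against 1.30% and 1.21% of all promoters. CACGTG, the E-box, lay in 0 of 7, against 7.15%. For Mir17hg the RefSeq start lies inside the microRNA cluster, so its window does not cover the start of the host. No match says only that these letters are not in this window.

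The small RNAs themselves could not be read from this table. The deposited annotation places 27 snoRNA and microRNA genes inside members (10 in Gas5, 8 in Snhg1, 6 in Mir17hg, 2 in Dnm3os and 1 in Dancr), and all 27 had 0 counts in all 9 libraries. All 27 overlap exons annotated to their host, and reads that lie over more than 1 gene were not counted, so this 0 is set by the counting and limits nothing. The same rule takes reads from the hosts: the hosted features cover 20.7% of the exonic bases of Snhg1, 16.7% of Gas5, 15.2% of Mir17hg, 5.10% of Dancr and 2.77% of Dnm3os. Strand was ignored as well, so where Gas5 overlaps Zbtb37, Kcnq1ot1 overlaps Kcnq1 and Dnm3os overlaps Dnm3 on the opposite strand, reads outside the shared exons cannot be assigned to a strand.

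Malat1 and Neat1, the 2 RNAs of nuclear bodies, lie close together on chromosome 19 (5845717 to 5852704 and 5874736 to 5895898, both minus strand). Malat1 was read at 85.2 CPM in 170019, 421 in 170024 and 184 in 170025, and at 269 in 3800 and 171 in 3802. The dFLEx tumors enclosed both KP tumors, and the spread inside the dFLEx group (4.94-fold) was larger than any difference between the groups. The log2 fold change was 0.07 ± 0.74 (SE) with an adjusted p of 0.990 in edgeR. It was -0.72 without 170024 and 0.59 without 3800, and it was below 0 in 11 of 18 alternatives, so no direction can be given.

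Neat1 was read at 19.01 CPM in 170019, 141 in 170024 and 117 in 170025, against 116 in 3800 and 42.4 in 3802. Here 170019 was the low tumor and the other dFLEx tumors were level with 3800. The log2 fold change was 0.22 ± 0.88 (SE) with an adjusted p of 0.974 in edgeR, 1.29 without 3800 and -0.31 without 3802. The ratio of Malat1 to Neat1 was not constant either, ranging from 1.58 in 170025 to 4.48 in 170019. For Neat1 the table counts 1 gene with 21163 exonic bases, so its short and long isoforms, of which the long one builds paraspeckles, were not separated.

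No protein listed as a partner of these RNAs passed the test. Of 15 paraspeckle proteins, 12 had a log2 fold change above 0 (43.7% of all tested genes) and 0 passed the threshold, with a median of 0.33. Pspc1, a core RNA-binding protein of the body, was at 0.98 ± 0.60 (SE), and the smallest values were those of Rbm14 (-0.17 ± 0.55) and the chromatin remodeler Smarca4 (-0.52 ± 0.54). Pspc1 had every dFLEx tumor above both KP tumors, at 43.7 to 55.8 CPM against 33.8 and 17.0 CPM. Of the 15, 2 lay above in this way and 1, Smarca4, below, where 13.7% and 11.7% of all tested genes did. Of 10 nuclear speckle proteins, 9 were above 0 (43.7% of all tested genes) and 0 passed, with a median of 0.48. They ran from the splicing factors Srsf3 (0.69 ± 0.59) and U2af1 (0.69 ± 0.55) down to Son (0.04 ± 0.51) and Srrm2 (-0.26 ± 0.72), which form the core of speckles. The lowest adjusted p in edgeR was 0.716 over the paraspeckle list and 0.827 over the speckle list.

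Norad varied widely inside both groups, though Neat1 did so more among the dFLEx tumors (7.41-fold) and Kcnq1ot1 more between the KP tumors (16.2-fold). It was read at 53.4 CPM in 170019, 159 in 170024 and 357 in 170025, and at 210 in 3800 and 21.9 in 3802. The KP tumors alone differed 9.56-fold and the dFLEx tumors 6.68-fold, so the groups overlapped widely. The log2 fold change of 0.71 ± 1.06 (SE, adjusted p of 0.920 in edgeR) went to 3.29 without 3800, to -0.13 without 3802 and to -0.12 without 170025. Tumors in which Norad was low, 170019 and 3802, were also those in which genes with long exons were lowest, as given above. A trend on GC content and length was also removed from each tumor, a step chosen after seeing the data. Norad then spanned 9.24-fold instead of 16.3-fold and Neat1 4.67-fold instead of 7.41-fold. Malat1 spanned 4.16-fold instead of 4.94-fold and Dancr 4.42-fold instead of 5.46-fold. The part of length or GC content in these levels was not tested. The span of the other members grew, to 14.4-fold for Gas5, 11.3-fold for Snhg1, 23.1-fold for Kcnq1ot1, 5.36-fold for Pvt1, 4.04-fold for Dnm3os and 2.69-fold for Mir17hg.

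**Figure D4:**
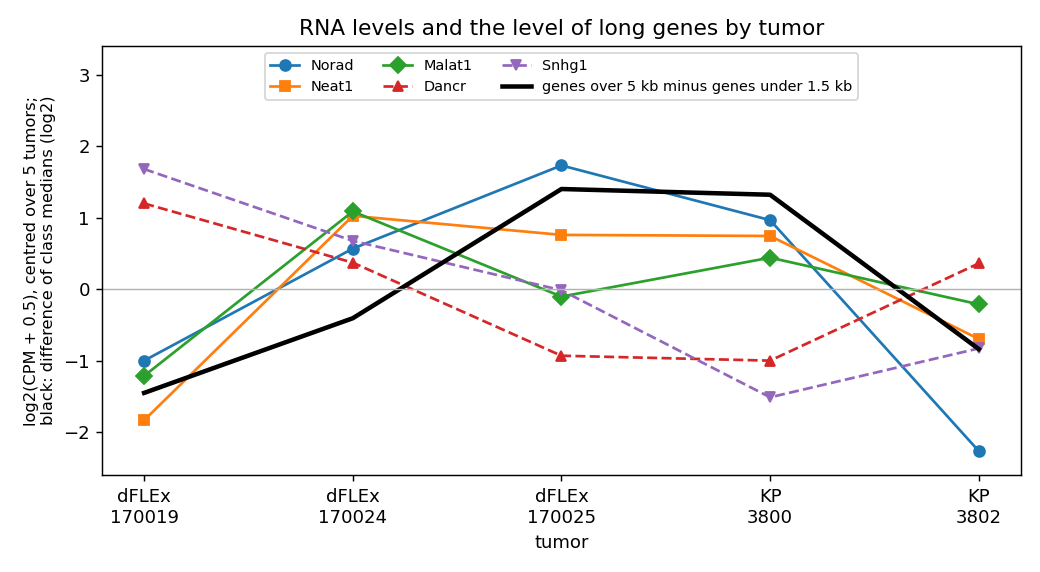
Centred log2(CPM + 0.5) of 5 members in each tumor (colored lines, solid for Norad, Neat1 and Malat1, dashed for Dancr and Snhg1), with the median level of genes over 5 kb minus that of genes under 1.5 kb in black, on the same log2 axis. Norad is low where the black line is low (170019 and 3802) and high where it is high (170025 and 3800), and Dancr runs the other way.

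Of the proteins that Norad is known to bind, the Pumilio protein Pum2 had a log2 fold change of 0.09 ± 0.59 (SE). The RNA-binding proteins Khdrbs1 and Rbmx were at 0.48 ± 0.65 and 1.47 ± 0.80, and none of these passed the test. Rbmx was at 23.1, 28.6 and 50.4 CPM in dFLEx and at 19.9 and 4.63 CPM in KP, and its adjusted p was 0.638 in edgeR. Pum2 stayed within 111 to 233 CPM over the 5 tumors, while Norad spanned 16.3-fold.

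Kcnq1ot1 (chromosome 7, 142757195 to 142850286, minus strand) was set apart by 1 tumor. This RNA starts inside Kcnq1 and is known to silence neighboring imprinted genes in cis. It was read at 15.2 CPM in 170019, 24.2 in 170024, 16.1 in 170025 and 19.4 in 3802, but at 1.20 CPM (89 counts) in 3800. The dFLEx tumors were within 1.59-fold of each other and the KP tumors differed 16.2-fold. The log2 fold change of 0.85 ± 1.02 (SE, adjusted p of 0.897 in edgeR) therefore became 3.97 without 3802 (adjusted p of 0.084) and 0.09 without 3800. Because the gene is a single exon of 93092 bases, the background per kb seen at receptor genes weighs on it more than on any other member. That background times its length came to 50.9% of its counts in 3802 and 48.6% in 3800, and to 14.6%, 5.74% and 1.60% in 170019, 170024 and 170025. With it subtracted, the levels were 13.01, 22.8 and 15.8 CPM in dFLEx and 0.614 and 9.54 CPM in KP, which no longer overlapped, and the log2 fold change was 1.59 with an adjusted p of 0.723 in edgeR. For the other members this background came to at most 15.6% of the counts of a tumor, the highest being Dnm3os in 3802.

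**Figure D5:**
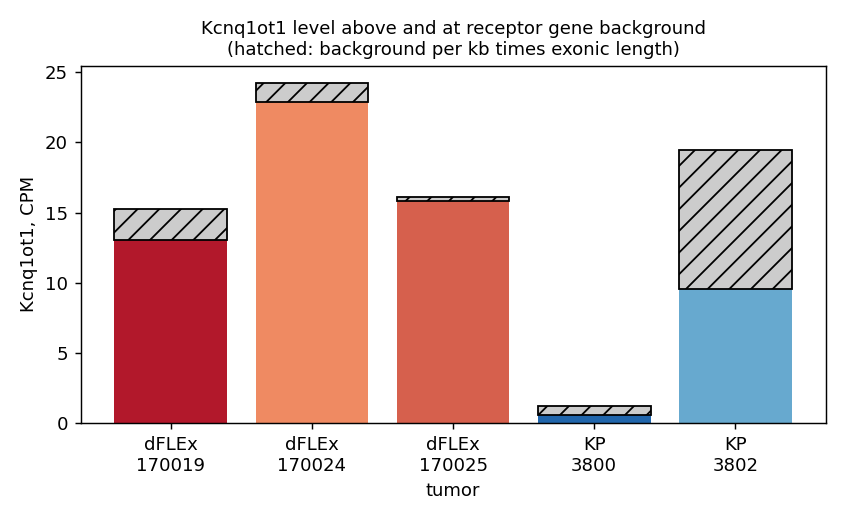
Kcnq1ot1 in CPM in each tumor (linear axis from 0), with the part equal to the receptor gene background per kb times its exonic length hatched in gray on top of the remainder. The hatched part is 50.9% of the bar in KP 3802, and KP 3800 stays at 1.20 CPM in all.

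The genes around Kcnq1ot1 were followed in a list of 14, of which 12 had a log2 fold change above 0 (43.7% of all tested genes) and 0 passed. In 5 of them every dFLEx tumor was above both KP tumors (13.7% of all tested genes), and the list's median was 0.78. Cdkn1c, a growth-restraining cyclin kinase inhibitor, was read at 1404, 893 and 678 CPM in dFLEx and at 90.3 and 291 CPM in KP (log2 fold change 2.38 ± 0.73, SE, adjusted p of 0.264 in edgeR). Phlda2, a growth-restraining gene of the placenta, was at 1.23 to 5.20 CPM against 0.618 and 0 CPM (3.03 ± 1.51). The smallest were the oxysterol-binding Osbpl5 (-0.09 ± 0.73) and the decoy receptor Tnfrsf23 (-0.48 ± 0.72). Cdkn1c was thus lowest in 3800, the tumor with the least Kcnq1ot1. But Cdkn1c was highest in 170019, where Kcnq1ot1 was at 15.2 CPM, against 24.2 CPM in 170024. In 170025 Kcnq1ot1 was at 16.1 CPM, too close to 170019 to be told apart. The duplicates of 170019 held 268 and 344 counts of it. A link between these genes was not tested. Kcnq1 itself, on the opposite strand, was at 3.36, 3.78 and 7.14 CPM in dFLEx and at 3.01 and 2.11 CPM in KP.

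Mir17hg and Dnm3os, the microRNA hosts, were read at a few CPM. Mir17hg had 45 to 106 counts per library and stood at 3.21, 1.72 and 2.09 CPM in dFLEx and at 2.23 and 3.82 CPM in KP. The groups overlapped, with a log2 fold change of -0.37 ± 0.71 (SE) and an adjusted p of 0.941 in edgeR. Duplicates of a tumor differed by up to 36.9% of their mean, which shows technical noise only. What the comparison of the models could detect depends on the spread between tumors, and no detection limit was computed. Without 3802 the log2 fold change was 0.09. Transcription factors known to drive the locus did not move together: Mycn was at 4.20, 9.48 and 21.5 CPM in dFLEx and at 0.887 and 1.504 CPM in KP (3.30 ± 0.92, adjusted p of 0.220 in edgeR), whereas E2f2 was at 11.3 to 15.2 CPM against 36.3 and 36.9 CPM (-1.42 ± 0.54, adjusted p of 0.402). The cell-cycle gene Ccnd1 (1.61 ± 1.07) overlapped between the groups, and E2f1 (0.03 ± 0.59) was level in the means. Of these 6 genes 5 were above 0 (43.7% of all tested genes) and 0 passed, with a median of 0.67.

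Of 6 textbook targets of the cluster, 3 were above 0 and 3 below, and 0 passed, with a median of -0.18. The matricellular genes Ccn2 (2.75 ± 0.84, SE) and Thbs1 (0.65 ± 0.85) were at one end, and the proapoptotic Bcl2l11 (-0.48 ± 0.75) and the receptor Tgfbr2 (-0.84 ± 0.99) at the other. Ccn2 was read at 646, 372 and 303 CPM in dFLEx and at 22.5 and 108 CPM in KP, while Mir17hg overlapped.

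Dnm3os was read at 8.66 CPM in 170019, 5.98 in 170024 and 5.93 in 170025, against 3.72 in 3800 and 5.40 in 3802. The groups did not overlap, but only 1.10-fold separated 170025 from 3802. With 127 to 286 counts per library and duplicates that differed by up to 21.9%, this gap was smaller than the difference between libraries of 1 tumor. The log2 fold change was 0.59 ± 0.62 (SE) with an adjusted p of 0.881 in edgeR, and 0.33 without 170019. Its known activator Twist1 was at 93.7, 82.2 and 126 CPM in dFLEx against 24.1 and 12.1 CPM in KP (2.47 ± 0.64, adjusted p of 0.196 in edgeR). The related Twist2 (-3.23 ± 1.31) and the mesenchymal factor Prrx1 (-2.59 ± 0.74) lay on the other side. Twist2 overlapped between the groups and was high in 3802 alone, at 17.2 CPM against 0.631 CPM in 3800 and 0.265 to 1.94 CPM in dFLEx, while Prrx1 was at 17.6 to 46.4 CPM in dFLEx against 292 and 78.2 CPM in KP. Dnm3, the gene on the opposite strand, had a log2 fold change of 0.34 ± 0.67.

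The microRNA host list as a whole had 13 tested genes, 6 above 0 and 7 below, with 0 past the threshold and a median of -0.37. Mirg, the host of an imprinted microRNA cluster, was at 47.4, 44.2 and 24.6 CPM in dFLEx against 0.376 and 4.06 CPM in KP (4.14 ± 1.12, SE, adjusted p of 0.206 in edgeR). At the other end, Mir100hg (-1.28 ± 0.74) was highest in 3800 at 63.7 CPM, and Mir142hg (-2.63 ± 1.13), the host of a microRNA of blood cells, was at 71.7 CPM in 3802 against 3.05 to 10.7 CPM in the other tumors. Lymphocyte markers were also highest in 3802, at 54.1 CPM in sum against 6.36 to 8.38 CPM in the other tumors. So were macrophage markers, at 4534 CPM in sum against 822 to 2174 CPM. The part of either was not tested.

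Pvt1 (chromosome 15, 61909817 to 62249945, plus strand), the neighbor of Myc, varied least over the tumors of all members, by 2.08-fold. It was read at 22.2 CPM in 170019, 12.7 in 170024 and 12.6 in 170025, against 10.7 in 3800 and 15.8 in 3802. The groups overlapped, and the log2 fold change was 0.26 ± 0.61 (SE, adjusted p of 0.951 in edgeR), or -0.12 without 170019 and 0.59 without 3802. Myc was at 39.9, 69.8 and 130 CPM in dFLEx and at 115 and 37.3 CPM in KP, a wider spread than that of Pvt1. With the trend on GC content and length removed, Pvt1 spanned 5.36-fold, so its evenness depends on leaving that trend in.

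Among 21 further tested long noncoding RNAs, 12 were above 0 and 9 below, with 0 past the threshold and a median of 0.26. Pantr1, a neural RNA next to a Pou3f gene, was at 78.4, 47.2 and 24.5 CPM in dFLEx and at 0 and 1.63 CPM in KP. Fendrr, a mesodermal RNA next to Foxf1, was at 15.9, 11.6 and 22.9 CPM against 0 and 0.610 CPM. Both had every dFLEx tumor above the KP tumors, with adjusted p values of 0.276 and 0.221 in edgeR. Lncpint had the lowest log2 fold change (-3.10 ± 0.93, SE, adjusted p of 0.256 in edgeR), at 0.174 to 0.252 CPM in dFLEx against 1.75 and 2.11 CPM in KP, a mean under 1 CPM. Of those averaging 1 CPM or more, the smallest were Ftx, an RNA of the X inactivation region (-0.52 ± 0.66), and Sox2ot (-2.79 ± 1.71), which was at 5.89 CPM in 3802 and below 1 CPM in the other tumors. Factors of nonsense-mediated decay, the pathway that is known to degrade spliced Gas5, gave 4 of 10 above 0 and 0 past the threshold, with a median of -0.21. They ran from Upf2 (0.45 ± 0.58) and Upf3a (0.16 ± 0.56) to Smg5 (-1.11 ± 0.61) and Upf3b (-1.17 ± 0.67).

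For each member, the gene whose centred log2 levels over the 5 tumors lay nearest was looked up among 10030 tested genes averaging 10 CPM or more, by the root mean square difference. Over 5 tumors such likeness is a description only. Gas5 was nearest to Igfbp4, a binding protein of insulin-like growth factors, with a difference of 0.077 in log2 units. Igfbp4 was at 4904, 3508 and 2518 CPM in dFLEx and at 479 and 523 CPM in KP. Dancr was nearest to Eef1b2, a translation elongation factor (0.068), and Pvt1 to Zdhhc20, a palmitoyl transferase (0.064). Dnm3os was nearest to the nucleolar Rrp8 (0.073), Snhg1 to Commd3 (0.104), Norad to the RNA-binding Hnrnpul2 (0.112) and Mir17hg to Cdca7 (0.119). Malat1 was nearest to Flnc, which codes for a muscle filamin (0.146), and Neat1 to Ttn, the gene of the giant muscle protein titin (0.274). Kcnq1ot1 was nearest to the hemoglobin gene Hbb-bt (0.400). A member that varies little gives a small difference, and the root mean square of the members' own centred levels ran from 0.351 for Pvt1 and 0.353 for Mir17hg to 1.41 for Kcnq1ot1 and 1.44 for Norad.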

How the data were processed

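RNA from flash-frozen dFLEx and KP tumors (RIN above 7 per the labels) had been split into duplicates and made into rRNA-depleted, paired-end libraries. The authors trimmed reads with Trimmomatic 0.39, aligned them with STAR 2.7.10a to mm39 plus a CIC::DUX4 contig, and deposited raw counts per gene from featureCounts 2.0.3. Per the file headers, both mates had to align, each mate was counted, strand was ignored, and reads over several genes or with several alignments were not counted, which bears on host genes and overlapping genes. The deposited exonic length was used for levels per kb. Because mates are counted singly and reads are not independent molecules, counting error exceeds what the totals would give.

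The 9 libraries with a column were summed per tumor. Genes passing filterByExpr were scaled by TMM and compared with glmQLFit and glmQLFTest of edgeR 4.0.16 (R 4.3.3), p-values being adjusted by Benjamini-Hochberg over every gene tested and called under 0.05, the SE being the absolute log2 fold change over the square root of F. DESeq2 1.42.0 and limma 3.58.1 were alternatives, as were other scalings, filters, background subtraction and leaving out each tumor. The script was tested on simulated data. Symbols came from GENCODE M39 by Ensembl identifier, and sequences from RefSeq (GRCm38.p6) or the GRCm39 genome. All 10 members are named. From each list, the 2 largest and 2 smallest log2 fold changes with a mean of at least 1 CPM are named where none passed, and the nearest gene for each member. Some genes that this rule names are not reported here. Members and lists were chosen with earlier results of these data known. The study's own test was DESeq2 at an adjusted p under 0.05; summing duplicates was chosen here because the study's treatment of them was not given in the sources used here.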

Additional observations from a re-analysis of the deposited data

How the results depend on the processing

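Over 18 alternatives, 149 of 180 values of the members kept their direction and their side of the threshold, 10 passed it (Gas5 in 7, Snhg1 in 3) and 21 changed sign, none of them past the threshold. Gas5, Snhg1, Kcnq1ot1 and Dnm3os never changed sign. The members called were 1 with DESeq2 on tumor sums, 1 with limma-voom and the tumor as a random effect, 1 without a filter on low counts, 1 with the trend on GC content and length removed (an alternative chosen after seeing the data), and 2 with libraries as independent samples in edgeR or in DESeq2. All genes called, 45 in the report, were 1408, 543, 880, 485, 3344 and 4838 in that order. Leaving out 1 tumor gave 0 to 414 genes and called 0 members each time. The duplicate numbers share only a number, since the correlations of the difference between duplicates over 6 pairs of tumors ran from -0.05 to 0.16. A replicate block on that number, with libraries as independent samples in edgeR, called 2 members and 2476 genes. The cause of these differences was not tested.

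Malat1 had a log2 fold change below 0 with DESeq2 on tumor sums (-0.0030), DESeq2 size factors (-0.0115), the trend removed (-0.0624), the replicate block (-0.0594), libraries as independent samples in DESeq2 (-0.0705) and edgeR (-0.04), library totals (-0.18), limma-voom (-0.28) and upper quartile scaling (-0.0635), and ranged from -0.72 to 0.59 when 1 tumor was left out. Neat1 was -0.0106 with libraries as independent samples in DESeq2 and -0.11 with limma-voom, and ranged from -0.31 to 1.29 with 1 tumor left out. Pvt1 was -0.0790 with library totals and -0.12 to 0.59 with 1 tumor left out. The same range was -0.13 to 3.29 for Norad, -0.73 to 0.0857 for Mir17hg and -0.0370 to 1.68 for Dancr. Scaling shifted the median log2 fold change of all tested genes from -0.18 (TMM) to -0.26 (DESeq2 size factors), -0.34 (upper quartile) and -0.47 (library totals). The calls split 25 higher to 20 lower with TMM, 14 to 20 with library totals and 17 to 33 with upper quartile scaling. List medians moved by less than 1 SE of the list's log2 fold changes in 169 of 216 comparisons and changed sign in 10. The lowest counts per library were 42 for Kcnq1ot1, 45 for Mir17hg and 56 for Dancr. Duplicates of these members differed by up to 44.5%, 36.9% and 50.1%, and the part of depth in this was not tested.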
